A study of Xenopus laevis with 17 samples.

Results

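Vertebrate gene lists still hold many names of the form C1orf192, given to a predicted open reading frame by its place on a human chromosome before anything was known of the protein. Gene models with such a name were taken from RNA sequencing of animal caps of the frog Xenopus laevis by their symbol alone, which began with C, a human chromosome and orf. They numbered 387 models of 276 symbols, among 24383 models in all. Of these, 321 models of 241 symbols passed the low-count filter and were tested, among 19058 tested models. The other 66 were too low to test, with a mean of at most 0.594 CPM over the libraries, and 9 of them were at 0 in every library. All levels below are CPM, counts scaled to a common library size, and fold changes are on the log2 scale ± standard error (SE), negative where the group named first or under discussion was lower than the group it was compared with.

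Motile cilia beat by sliding the microtubule doublets of their axoneme, the core of the cilium, past each other. Both Foxj1, which turns on the program of motile cilia, and Foxn4, which multiciliated cells also make, are transcription factors of the forkhead family. Many open reading frame genes were later found to encode ciliary proteins and were renamed, often as cilia and flagella associated proteins (CFAP) or as proteins inside the microtubule doublets, whereas others turned out to act in mitochondria, in the upkeep of the genome or elsewhere.

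The study asked what Foxj1 and Foxn4 each contribute to multiciliated cells. Animal caps are ectoderm of the early embryo that forms skin in culture, and every RNA library came from caps injected with RNA for Multicilin, a protein that drives ectoderm cells to the multiciliated fate, fused to a hormone-binding domain and switched on with 20 µM dexamethasone. The groups were Multicilin with Cas9 and a foxj1 guide RNA (Foxj1 CRISPR, n = 2), with Cas9 and a foxn4 guide RNA (Foxn4 CRISPR, n = 2), with a foxn4 antisense morpholino (n = 2), and Multicilin alone (control, n = 3). Samples are described as 20 caps per condition, harvested at embryonic stage 18, 9 h after the switch at 22 °C. This does not say how many caps went into each library. Injected embryos are mosaics of edited and unedited cells, so levels are averages over both. A further 2 libraries were ChIP of a GFP-tagged Foxn4, given with Multicilin or alone.

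All 3 control libraries were re-used from an earlier study and all perturbed libraries were made for this one, so in comparisons with the control the study of origin and the group cannot be told apart. Neither Foxj1 CRISPR nor Foxn4 CRISPR holds a re-used library, but all 9 libraries were fitted together. The re-used controls thus entered the estimate of spread behind the p-values of their comparison. The labels do not tie replicates to separate clutches of embryos, so p-values cover only the spread among the libraries at hand, and this spread may be technical. The 3 FOXJ1 models summed to 2027 and 2161 CPM in Foxj1 CRISPR, against 1694, 1209 and 2049 in the control, and the 2 FOXN4 models to 569 and 598 CPM in Foxn4 CRISPR and 908 and 1019.6 with the morpholino, against 626, 132 and 816 in control caps. None of these libraries lay below the lowest control, and since an edited or morpholino-blocked gene can still be transcribed, RNA levels are no check of the perturbation. Libraries held between 8265823 and 22041340 estimated counts. Of 7 markers of multiciliated cells, 6 had models, and all 6 were above 0 in every library, with sums of 4109 to 4626 CPM in Foxj1 CRISPR, 6536 to 6637 in Foxn4 CRISPR and 4862 to 6181 with the morpholino, against 6073 to 10769 in the control. The sum joins unlike genes: CCNO, which acts early in multiciliated cells, was at 1216 and 1207 CPM in Foxj1 CRISPR, against 1185, 424 and 1813 in the control, whereas DNAH9, an axonemal dynein, was at 256 and 472 CPM, against 3664, 2214 and 2505. The 3 secretory cell markers summed to 2667 to 2915 CPM in Foxj1 CRISPR, 2841 to 2869 in Foxn4 CRISPR and 1474 to 2052 with the morpholino, against 5358 to 15100 in the control. Nearly all of this sum was OTOG and ITLN1. TFF2 went the other way, at 1.09 to 3.42 CPM in the perturbed libraries, against 0.115 to 0.212 in the control. The part of the secretory markers in the results was not tested. Of 3 neural markers 2 had models, with sums, nearly all TUBB2B, of 2277 and 3675 CPM in Foxj1 CRISPR, 5158 and 6557 in Foxn4 CRISPR and 2887 and 5210 with the morpholino, against 5530 to 11870 in the control. By this sum both Foxj1 CRISPR libraries lay below both Foxn4 CRISPR libraries and all controls, as with the ciliary pattern described next. The other neural marker, NCAM1, was higher in every perturbed library than in the control. NCAM1 was at 113 and 135 CPM in Foxj1 CRISPR and 78.5 and 120 in Foxn4 CRISPR. With the morpholino it was at 86.3 and 91.6, against 39.2, 19.2 and 43.9 in the control. The part of these markers in the results was not tested. Markers of epidermis summed to between 7748 and 10334 CPM over all libraries. Of these, GRHL3 was at 1528 to 2541 in the perturbed libraries, against 918 to 1324 in the control, and the others overlapped the control. The 3 ionocyte markers summed to between 381 and 658 CPM. FOXI1 was higher in the perturbed libraries (150 to 358, against 38.5 to 96.0), ATP6V1A lower (91.7 to 236, against 309 to 479), and CA12 overlapped. Their part in the results was not tested. Mesoderm and endoderm markers summed to at most 37.9 and 6.76 CPM. Of the mesoderm markers, GSC was at 1.52 to 18.4 in the perturbed libraries, against at most 0.0635 in the control. ACTA1 was at 0.435 to 1.34, against 5.59 to 37.8, and MYOD1 overlapped. Endoderm sums were 2.21 to 6.76 in the perturbed libraries, against 0.445 to 1.44 in the control. The part of these low markers in the results was not tested. In such bulk samples, fewer cells of a type and less RNA per cell cannot be told apart.

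A ciliary pattern was defined as RNA lower in Foxj1 CRISPR than in both the Foxn4 CRISPR caps and the control. It was found for 16 of the 321 tested models (4.98%), against 1.41% of all tested models. The 16 were genes of axoneme proteins such as C1orf158, C1orf192 and C9orf116, the ciliogenesis gene C2orf62, and genes with little known function such as C11orf16 and C6orf118. Their log2 fold changes against Foxn4 CRISPR ran from -5.15 to -1.43. In each of the 16, both Foxj1 CRISPR libraries lay below all 7 other libraries. The 16 were chosen as lower than Foxn4 CRISPR and the control, so this order is largely built in for those groups. The morpholino libraries were not used in the choice, but low Foxj1 CRISPR levels favour the same order there. Calls were made with edgeR's quasi-likelihood test at a Benjamini-Hochberg adjusted p under 0.05 over all tested models.

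**Figure D1:**
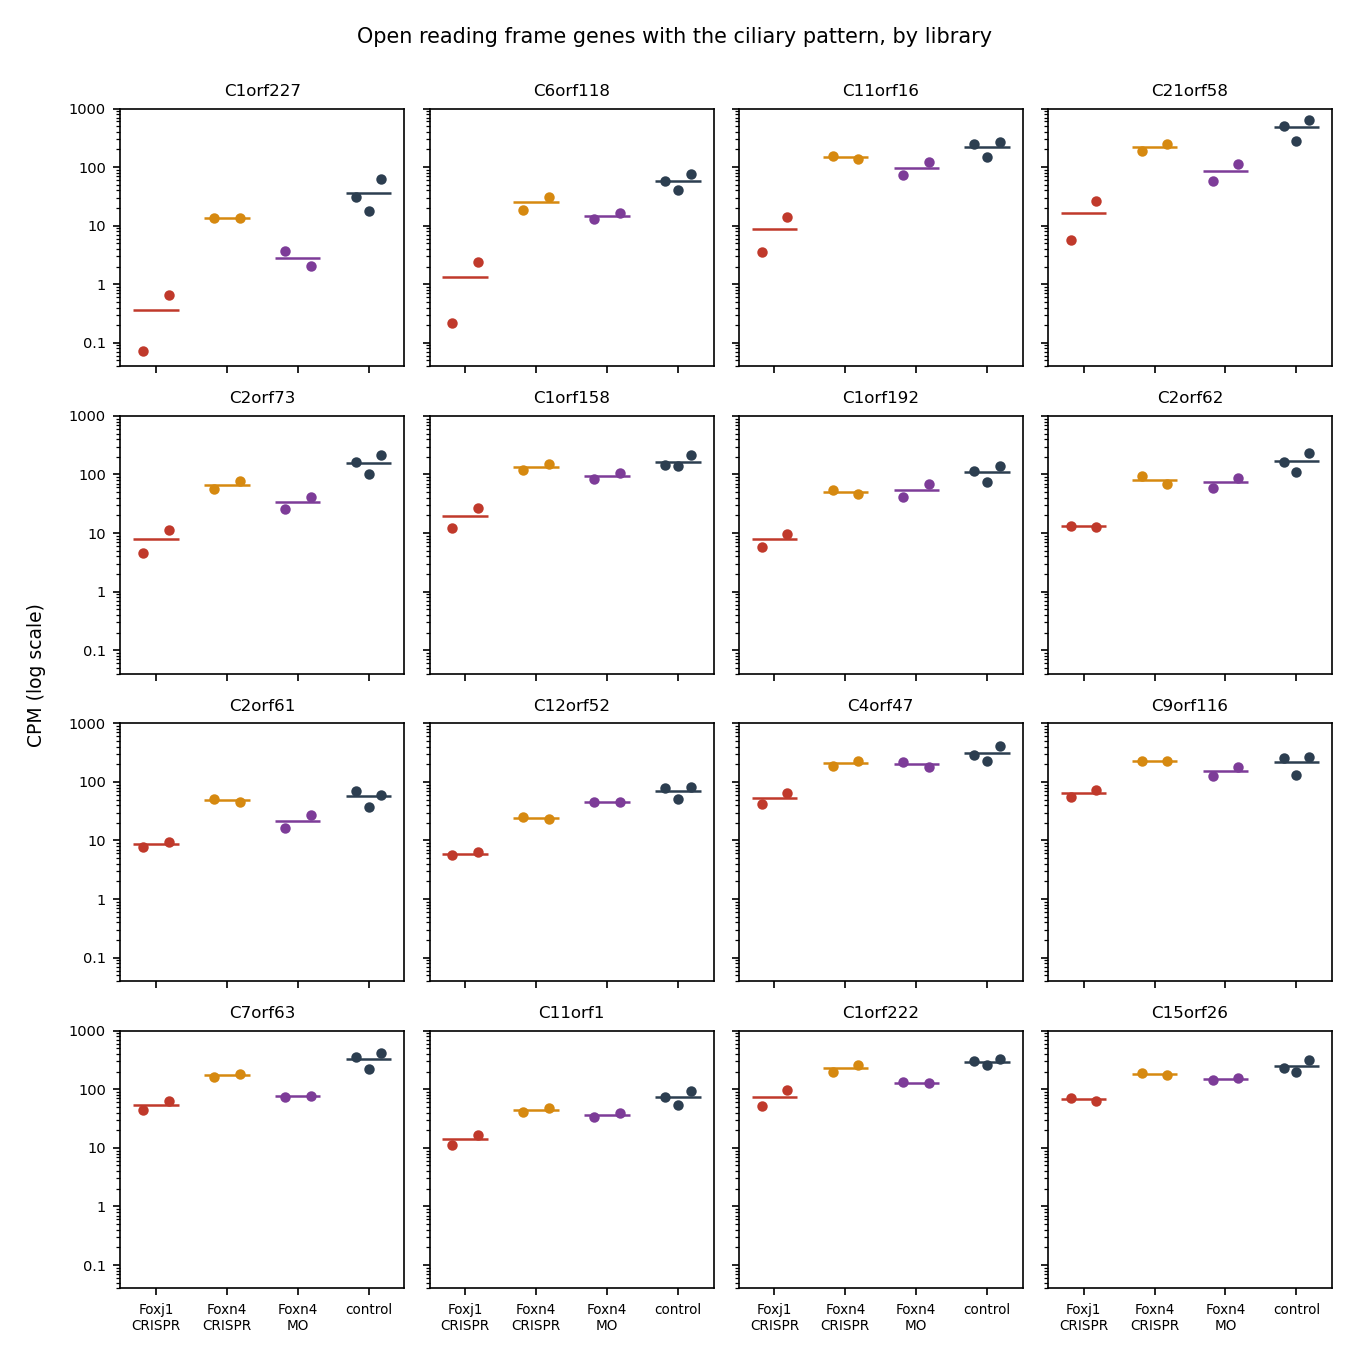
Level of the 16 open reading frame genes with the ciliary pattern, ordered by their fold change between Foxj1 and Foxn4 CRISPR. Each point is 1 library, each bar the mean of its group, and the y axis is CPM on a log scale. In every panel both Foxj1 CRISPR points lie below all 7 other points, and the middle control point, replicate 2, is the lowest of the 3 controls. That Foxj1 CRISPR lies below Foxn4 CRISPR and the control is largely built in by the choice of the 16.

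Several of the 16 encode proteins lodged inside the microtubule doublets of the axoneme. C1orf158 (now CFAP107), known from the doublets of mammalian cilia, lies at positions 1808585 to 1813979 of scaffold 109184 of the version 7.1 assembly. C1orf158 stood at 12.2 and 26.3 CPM in Foxj1 CRISPR caps, at 121 and 152 in Foxn4 CRISPR caps and at 84.6 and 105 in morpholino caps, and the control libraries had 146, 139 and 214. The Foxj1 CRISPR libraries were clearly apart from all others, while Foxn4 CRISPR and the control overlapped. The difference was -2.83 ± 0.39 (adjusted p = 0.0166) from Foxn4 CRISPR and -3.11 ± 0.38 (adjusted p = 0.00037) from the control. C9orf116 (PIERCE1), which in mouse is needed to dock the outer dynein arms, lies at positions 494532 to 498279 of scaffold 46073. C9orf116 had 55.0 and 73.8 CPM with Foxj1 CRISPR, 228 and 224 with Foxn4 CRISPR and 124 and 177 with the morpholino, against 259, 132 and 271 in control caps. Foxn4 CRISPR stood within the range of the control here, and both Foxj1 CRISPR libraries and 1 morpholino library lay below the lowest control. The difference was -1.81 ± 0.37 (adjusted p = 0.0415) from Foxn4 CRISPR and -1.77 ± 0.35 (adjusted p = 0.00315) from the control. Its model overlaps PPP1R26 on the other strand, and the libraries were non-stranded, so reads of the pair cannot be told apart where they overlap.

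C15orf26 (CFAP161) and C11orf1 (CFAP68) are also doublet inner proteins in mammals, and were named here because they had the pattern, outside the rule for named genes. C15orf26 had 72.3 and 63.9 CPM with Foxj1 CRISPR, 191 and 175 with Foxn4 CRISPR and 142 and 155 with the morpholino, against 231, 196 and 319 in control caps. C11orf1 stood at 11.4 and 16.8 CPM in Foxj1 CRISPR caps, at 40.7 and 48.7 in Foxn4 CRISPR caps and at 33.6 and 39.7 in morpholino caps, and the control libraries had 73.4, 54.7 and 92.0. Both genes kept the same order of groups, with Foxj1 CRISPR lowest, the morpholino next, then Foxn4 CRISPR and the control. The smallest of the 16 differences from Foxn4 CRISPR was that of C15orf26, at -1.43 ± 0.28 (adjusted p = 0.0343), and C11orf1 stood at -1.67 ± 0.32 (adjusted p = 0.0338). C15orf26 lies at positions 7706192 to 7712216 of scaffold 9266 and C11orf1 at positions 1530392 to 1534394 of scaffold 78584. The start of C11orf1 lies 30 bp from that of FDXACB1, and the models overlap on opposite strands.

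A pair of genes encode parts of the central apparatus, the microtubule pair in the middle of a motile axoneme. C7orf63 (CFAP69), known from mouse sperm and airway cilia, lies at positions 1151418 to 1189519 of scaffold 29451, and C1orf222 (CFAP74) at positions 1595018 to 1669325 of scaffold 47457. C7orf63 was at 44.2 and 62.1 CPM in the Foxj1 CRISPR libraries, in the Foxn4 CRISPR libraries at 164 and 184, in the morpholino libraries at 73.6 and 77.4 and in the controls at 353, 220.2 and 414. C1orf222 was at 51.2 and 97.1 CPM in the Foxj1 CRISPR libraries, in the Foxn4 CRISPR libraries at 197 and 258, in the morpholino libraries at 131 and 129 and in the controls at 307, 262 and 323. In both genes the morpholino libraries lay below both Foxn4 CRISPR libraries but above both Foxj1 CRISPR libraries. Against Foxn4 CRISPR the differences were -1.71 ± 0.32 (adjusted p = 0.0325) for C7orf63 and -1.62 ± 0.32 (adjusted p = 0.0376) for C1orf222. C1orf222 was named outside the rule, because it had the pattern.

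C1orf192, now called Flattop or CFAP126, is an axoneme and basal body protein known from mouse ear and lung, and lies at positions 2698157 to 2704657 of scaffold 12462. C1orf192 was at 5.79 and 9.79 CPM in the Foxj1 CRISPR libraries, in the Foxn4 CRISPR libraries at 54.0 and 45.8, in the morpholino libraries at 41.4 and 68.6 and in the controls at 116, 75.5 and 139. The Foxj1 CRISPR libraries were lowest, and the Foxn4 CRISPR and morpholino libraries lay between them and the control without overlap with the control. C1orf192 differed by -2.68 ± 0.40 (adjusted p = 0.0166) from Foxn4 CRISPR and by -3.82 ± 0.40 (adjusted p = 0.000206) from the control. C2orf62 (CATIP) is an actin regulator needed for ciliogenesis in zebrafish, and lies at positions 4464242 to 4473711 of scaffold 21603. C2orf62 was at 13.2 and 12.9 CPM in the Foxj1 CRISPR libraries, in the Foxn4 CRISPR libraries at 93.3 and 69.3, in the morpholino libraries at 58.2 and 88.8 and in the controls at 162, 108 and 236. The Foxj1 CRISPR replicates of C2orf62 were nearly equal and far below every other library, with differences of -2.64 ± 0.39 (adjusted p = 0.0166) from Foxn4 CRISPR and -3.69 ± 0.39 (adjusted p = 0.000208) from the control. C4orf47 (CFAP96), a cilia and flagella associated protein, lies at positions 2934645 to 2944111 of scaffold 14692. C4orf47 stood at 42.5 and 64.8 CPM in Foxj1 CRISPR caps, at 188 and 229 in Foxn4 CRISPR caps and at 220.5 and 179 in morpholino caps, and the control libraries had 291, 228 and 407. C4orf47 had the highest control level of the 16 per length, at 551 ± 102 TPM, a deposited unit that accounts for gene length (SD, n = 3), and 113 ± 32.5 TPM in Foxj1 CRISPR (SD, n = 2). Its differences were -1.96 ± 0.34 (adjusted p = 0.0233) from Foxn4 CRISPR and -2.53 ± 0.33 (adjusted p = 0.00045) from the control.

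Within the 16, the largest differences between Foxj1 and Foxn4 CRISPR belonged to genes with no firmly established ciliary part. C1orf227 (SPATA45, a gene first described from spermatogenesis) lies at positions 11040215 to 11044374 of scaffold 102974. C1orf227 stood at 0.0723 and 0.662 CPM in Foxj1 CRISPR caps, at 13.3 and 13.3 in Foxn4 CRISPR caps and at 3.64 and 2.02 in morpholino caps, and the control libraries had 30.7, 17.6 and 61.7. The Foxj1 CRISPR libraries rested on 1 and 9 estimated counts, so the size of the fall is poorly fixed there. C1orf227 differed by -5.15 ± 0.81 (adjusted p = 0.0176) from Foxn4 CRISPR and by -6.61 ± 0.81 (adjusted p = 0.000362) from the control. C6orf118 lies at positions 152439 to 184176 of scaffold 14467. C6orf118 was at 0.217 and 2.43 CPM in the Foxj1 CRISPR libraries, in the Foxn4 CRISPR libraries at 18.4 and 31.3, in the morpholino libraries at 12.8 and 16.7 and in the controls at 57.4, 40.7 and 77.5. Its Foxj1 CRISPR values came from 3 and 33 estimated counts, and no other library was below 12.8 CPM. C6orf118 differed by -4.23 ± 0.72 (adjusted p = 0.0224) from Foxn4 CRISPR and by -5.46 ± 0.73 (adjusted p = 0.000518) from the control.

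C11orf16 was abundant in every group except Foxj1 CRISPR and lies at positions 6114735 to 6124185 of scaffold 25194. C11orf16 stood at 3.62 and 13.9 CPM in Foxj1 CRISPR caps, at 157 and 137 in Foxn4 CRISPR caps and at 72.3 and 122 in morpholino caps, and the control libraries had 243, 151 and 271. The Foxj1 CRISPR replicates differed from each other by a larger ratio than those of any other group, yet the higher of them was far below the lowest other library. The differences were -4.07 ± 0.58 (adjusted p = 0.0166) from Foxn4 CRISPR and -4.66 ± 0.58 (adjusted p = 0.000392) from the control. C21orf58 lies at positions 1739804 to 1749348 of scaffold 4321. C21orf58 was at 5.63 and 26.7 CPM in the Foxj1 CRISPR libraries, in the Foxn4 CRISPR libraries at 186 and 251, in the morpholino libraries at 58.8 and 114 and in the controls at 497, 283 and 649. Its differences were -3.76 ± 0.68 (adjusted p = 0.0295) from Foxn4 CRISPR and -4.88 ± 0.70 (adjusted p = 0.000706) from the control. C2orf73 lies at positions 19737581 to 19755460 of scaffold 102974. C2orf73 stood at 4.56 and 11.3 CPM in Foxj1 CRISPR caps, at 55.9 and 76.8 in Foxn4 CRISPR caps and at 25.5 and 41.1 in morpholino caps, and the control libraries had 162, 101 and 217. The Foxn4 CRISPR libraries of C2orf73 lay below all controls, and the Foxj1 CRISPR libraries lay lower again, at -3.06 ± 0.50 (adjusted p = 0.0196). C2orf61 (STPG4), which carries the PG-rich repeats of sperm tail proteins, lies at positions 16758319 to 16780528 of scaffold 102974, on the same scaffold as C2orf73 and C1orf227 but far from them. C2orf61 stood at 7.81 and 9.42 CPM in Foxj1 CRISPR caps, at 51.0 and 46.1 in Foxn4 CRISPR caps and at 16.0 and 27.1 in morpholino caps, and the control libraries had 71.1, 37.5 and 60.4. Foxn4 CRISPR overlapped the control in C2orf61, and Foxj1 CRISPR lay below Foxn4 CRISPR, at -2.49 ± 0.37 (adjusted p = 0.0166).

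C12orf52 (RITA1) encodes a protein that binds tubulin and carries the Notch effector RBPJ out of the nucleus in human cells, and was the 1 symbol of the 16 with a further tested copy. The copy with the pattern lies at positions 3442046 to 3462481 of scaffold 272406. C12orf52 on scaffold 272406 stood at 5.57 and 6.35 CPM in Foxj1 CRISPR caps, at 24.8 and 23.1 in Foxn4 CRISPR caps and at 44.7 and 45.2 in morpholino caps, and the control libraries had 79.0, 50.4 and 82.0. In this copy Foxn4 CRISPR was itself lower than the morpholino and the control, and Foxj1 CRISPR was lower again, at -2.01 ± 0.30 (adjusted p = 0.0166) from Foxn4 CRISPR. The other copy lies at positions 675058 to 687064 of scaffold 44061. C12orf52 on scaffold 44061 stood at 23.7 and 26.6 CPM in Foxj1 CRISPR caps, at 46.8 and 33.7 in Foxn4 CRISPR caps and at 22.8 and 29.6 in morpholino caps, and the control libraries had 72.7, 35.9 and 84.3. The second copy was lower than the control in Foxj1 CRISPR, at -1.36 ± 0.36 (adjusted p = 0.0139), but its difference from Foxn4 CRISPR was -0.68 ± 0.38 (adjusted p = 0.568). That lower call ended without Foxj1 CRISPR replicate 1 (-1.27) and without replicate 2 (-1.44). Uniquely matching reads amounted to 61.8% of the estimated counts of the first copy and 84.8% of the second, so the split between them is uncertain. With the copies summed, the difference from Foxn4 CRISPR was -1.03 with adjusted p = 0.16, and C12orf52 no longer had the pattern. The first copy also overlaps DDX54 on the other strand.

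Within the 16, single libraries kept a common order. Control replicate 2 was the lowest control in all 16, and Foxj1 CRISPR replicate 1 lay below replicate 2 in 14. Both morpholino libraries lay above both Foxj1 CRISPR libraries in all 16, and below both Foxn4 CRISPR libraries in 12. These orders of single libraries were not counted over all tested models. Against the control, 11 of the 16 were called lower with the morpholino and 4 with Foxn4 CRISPR (C12orf52, C1orf192, C2orf62 and C7orf63). Of all tested models, 21.1% and 10.7% were called lower in these comparisons. The pattern was called against the control and Foxn4 CRISPR, so high levels in both are partly built into the choice of the 16. That choice also favours few lower calls in Foxn4 CRISPR and morpholino levels below Foxn4 CRISPR. Per length they had mean control levels between 22.4 and 551 TPM and a median of 194 TPM, against medians of 10.0 TPM over the tested open reading frame models and 7.95 TPM over all tested models. Their models had a median length of 1342 bases, against 1585 and 2513 bases. Of the 16, 15 had 1 model of their symbol, and a median of 99.99% of their counts matched uniquely.

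Few calls between the CRISPR groups remained when certain single libraries were left out. Leaving out a CRISPR library also leaves its group with 1 library, and the part of this in the lost calls was not tested. Without Foxj1 CRISPR replicate 1, Foxn4 CRISPR replicate 1 or Foxn4 CRISPR replicate 2, 0 tested members had the pattern, and over all tested models 0, 0 and 1 were called lower, against 272 with all libraries. The direction did not change, and without Foxj1 CRISPR replicate 1 the 16 log2 fold changes ran from -4.30 to -1.22. Without control replicate 2, which stood apart from the other controls, 32 members had the pattern, all 16 among them. Over all tested models, 589 were then called lower between the CRISPR groups, against 272 with all libraries.

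Other genes stayed just outside the threshold. C9orf117 (CFAP157, a basal body protein of motile cilia in mouse) missed it by the least, at -1.31 ± 0.28 (adjusted p = 0.0501). C9orf117 stood at 42.0 and 56.6 CPM in Foxj1 CRISPR caps, at 123 and 122 in Foxn4 CRISPR caps and at 112 and 119 in morpholino caps, and the control libraries had 229, 162 and 247. Its Foxj1 CRISPR libraries lay below all others without overlap. C1orf194 (CFAP276, a doublet inner protein), on scaffold 2841, stood at -3.66 ± 0.78 (adjusted p = 0.0519), C2orf50 on scaffold 142445 at -3.15 ± 0.71 (adjusted p = 0.0609) and C16orf93 (CFAP119) at -1.42 ± 0.33 (adjusted p = 0.0635). Just inside were C9orf116, C1orf222 and C15orf26. C9orf117 passed under 7 of the alternatives tried, among them DESeq2 and the uniquely matching reads. These genes outside the threshold were chosen for their nearness to it, after their values were seen. In all, 53 of 321 tested members (16.5%) had both Foxj1 CRISPR libraries below all 7 others, against 8% of all tested models, and 22 (6.85%) had both above all others, against 6.37%.

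Compared with the control, 91 of the 321 tested members (28.3%) were lower in Foxj1 CRISPR and 59 (18.4%) were higher, against 20.7% and 19.8% of all tested models. The median log2 fold change was -0.22, against 0.01 over all tested models. Lists by later gene name differed in their calls. The lists were chosen with earlier results of these data known, so this difference is no independent result. Of 27 tested models of the axoneme list, 26 fell, 0 rose and 1 was not called, with a median of -2.48 (0 rose at an unadjusted p under 0.05 and 0 by DESeq2). The model not called was C9orf171 (CFAP77), at -0.64 ± 0.27 (adjusted p = 0.0803). Both Foxj1 CRISPR libraries lay below all 7 others in 20 of the 27. Of 11 tested models of cilium assembly genes outside the axoneme, 8 fell, 0 rose and 3 were not called, with a median of -1.47 (0 rose at an unadjusted p under 0.05 and 0 by DESeq2). The axoneme count was 23 without Foxj1 CRISPR replicate 1, while the cilium assembly count was 3 without Foxj1 CRISPR replicate 1 and 5 without replicate 2.

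**Figure D2:**
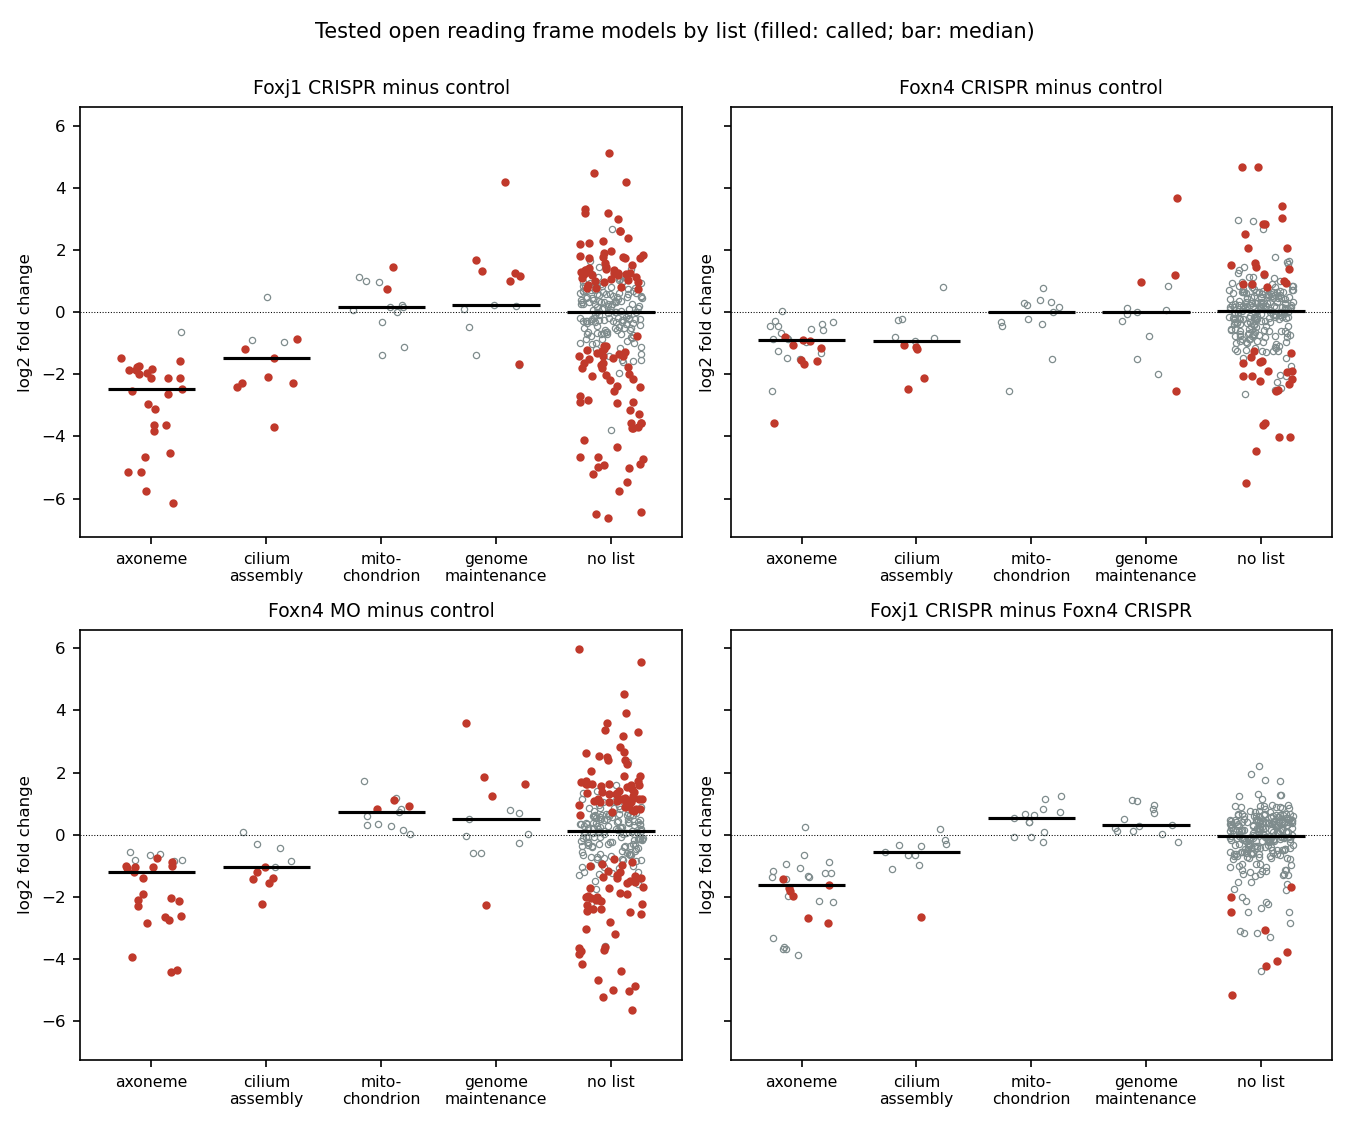
Log2 fold changes of the 321 tested open reading frame models by list, for 4 comparisons. Each point is 1 model, filled where called, and each bar is the median of the list. The axoneme list lies almost wholly below 0 in each panel, with its median at -2.48 for Foxj1 CRISPR minus control, whereas the mitochondrion list has its median at 0.17 there.

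Within the cilium lists, the genes with the highest levels that lacked the pattern showed how the effect varied. C17orf105 (CFAP97D1, a protein of the mouse sperm axoneme) had the steepest fall from the control of any listed gene. C17orf105 on scaffold 17127 had 0.36 and 10.4 CPM with Foxj1 CRISPR, 50.1 and 80.8 with Foxn4 CRISPR and 19.0 and 16.4 with the morpholino, against 469, 135 and 526 in control caps. On scaffold 17127 it differed from the control by -6.13 ± 1.11 (adjusted p = 0.00219), and from Foxn4 CRISPR by -3.61 ± 1.02 (adjusted p = 0.145), where the Foxj1 CRISPR replicates themselves were far apart. C20orf26 (CFAP61), part of a complex at the base of the radial spokes, had another order of groups. C20orf26 was at 25.8 and 37.8 CPM in the Foxj1 CRISPR libraries, in the Foxn4 CRISPR libraries at 61.9 and 102, in the morpholino libraries at 124 and 148 and in the controls at 333, 172 and 234. Here Foxn4 CRISPR lay below the morpholino, and Foxj1 CRISPR was lowest, at -2.95 ± 0.38 (adjusted p = 0.000414) from the control and -1.37 ± 0.37 (adjusted p = 0.127) from Foxn4 CRISPR. C6orf165 (CFAP206), also at the base of radial spokes, stood at -1.87 ± 0.31 (adjusted p = 0.00149) relative to the control. C6orf165 stood at 85.5 and 115 CPM in Foxj1 CRISPR caps, at 227 and 237 in Foxn4 CRISPR caps and at 172 and 193 in morpholino caps, and the control libraries had 397, 237 and 466. Its Foxj1 CRISPR libraries lay below every other library, with a difference of -1.21 ± 0.32 (adjusted p = 0.12) from Foxn4 CRISPR.

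C16orf80 (CFAP20), which seals the inner junction of the doublet, had a pair of tested copies. C16orf80 on scaffold 135348 was at 120.3 and 130.0 CPM in the Foxj1 CRISPR libraries, in the Foxn4 CRISPR libraries at 226 and 232, in the morpholino libraries at 176 and 219 and in the controls at 368, 269 and 609. On scaffold 135348 the difference from the control was -1.73 ± 0.34 (adjusted p = 0.00311), and uniquely matching reads made up 54.3% of its counts. C5orf42 (CPLANE1), a planar polarity effector that helps to build cilia, was the most abundant model of the cilium assembly list. C5orf42 had 286 and 384 CPM with Foxj1 CRISPR, 379.8 and 377 with Foxn4 CRISPR and 194 and 256 with the morpholino, against 911, 271 and 798 in control caps. The Foxj1 CRISPR, Foxn4 CRISPR and control libraries of C5orf42 overlapped, and control replicate 2 lay below both CRISPR groups. It differed from the control by -0.98 ± 0.44 (adjusted p = 0.0963), and without control replicate 2 by -1.34 with adjusted p = 0.00172. The other genes of the list not called were C11orf49 (CSTPP1), at -0.91 ± 0.38 (adjusted p = 0.0797), and C16orf59 (TEDC2), at 0.47 ± 0.49 (adjusted p = 0.468).

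The other lists held few lower models. Of 13 tested models of mitochondrial genes, 0 were lower and 2 higher in Foxj1 CRISPR than in the control, with a median of 0.17 (0 lower at an unadjusted p under 0.05 and 0 by DESeq2). The 2 were C19orf52 (TIMM29, a subunit of the import machinery of the inner membrane) on scaffold 82179, at 0.73 ± 0.25 (adjusted p = 0.0359), and C7orf55 (FMC1, an assembly factor of ATP synthase), at 1.45 ± 0.41 (adjusted p = 0.0175). Both calls ended without either Foxj1 CRISPR replicate. Of 13 tested models of genome maintenance genes, 6 rose, 1 fell and 6 were not called, with a median of 0.23, and without Foxj1 CRISPR replicate 1 the counts were 3 higher and 0 lower. A copy of CXorf57 had the highest value of the list, 4.20, and its other tested copy stood at 1.01, both called higher. Others of the 6 were C17orf70 (FAAP100, of the Fanconi anaemia core complex), at 1.69 ± 0.29 (adjusted p = 0.00159), and C11orf82 (DDIAS, an inhibitor of cell death), at 1.25 ± 0.27 (adjusted p = 0.00537). The remaining 257 tested models belonged to no list, and of these 56 fell, 51 rose and 150 were not called, with a median of -0.002. Beside the control, Foxj1 CRISPR against Foxn4 CRISPR gave medians of -1.62 for the axoneme list, -0.55 for cilium assembly, 0.54 for mitochondrion and 0.32 for genome maintenance, with 7, 1, 0 and 0 models lower. The other 8 lower models, of the 16, were among the 257 on no list, whose median was -0.03. Those 7 axoneme calls numbered 0 without Foxj1 CRISPR replicate 1 or either Foxn4 CRISPR replicate, 3 without control replicate 1 or either morpholino replicate and 16 without control replicate 2, and the single cilium assembly call ended without any 1 of the 4 CRISPR libraries. Of the mitochondrion and genome maintenance lists, 0 models were lower at an unadjusted p under 0.05 and 0 by DESeq2.

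Fewer members were called lower, and fewer higher, than the control when either Foxj1 CRISPR replicate was left out. That leaves the group with 1 library, and these counts are given without those over all tested models.

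Among models with a mean of at least 5 CPM over all libraries, the steepest rises in Foxj1 CRISPR against the control belonged to genes on none of the lists. C5orf30 (MACIR), a regulator of macrophage metabolism in human and mouse, was at or under 1.09 CPM in all controls. C5orf30 had 7.91 and 8.73 CPM with Foxj1 CRISPR, 6.86 and 6.52 with Foxn4 CRISPR and 7.59 and 8.76 with the morpholino, against 0.655, 1.09 and 0.724 in control caps. All 6 perturbed libraries lay between 6.52 and 8.76 CPM, without overlap with the control. C5orf30 rose by 3.33 ± 0.34 (adjusted p = 0.000184) in Foxj1 CRISPR, by 3.01 ± 0.34 (adjusted p = 0.000504) in Foxn4 CRISPR and by 3.30 ± 0.34 (adjusted p = 0.000142) with the morpholino. C18orf21 rose by 2.38 ± 0.45 (adjusted p = 0.00265) in Foxj1 CRISPR. C18orf21 stood at 16.0 and 11.0 CPM in Foxj1 CRISPR caps, at 6.87 and 4.28 in Foxn4 CRISPR caps and at 10.9 and 5.45 in morpholino caps, and the control libraries had 1.46, 3.67 and 2.64. The perturbed libraries all lay above the highest control. C19orf24 (FAM174C, a membrane protein) had the tightest controls. C19orf24 was at 87.8 and 88.7 CPM in the Foxj1 CRISPR libraries, in the Foxn4 CRISPR libraries at 52.3 and 77.2, in the morpholino libraries at 67.5 and 53.1 and in the controls at 23.8, 23.9 and 23.8. C19orf24 rose by 1.89 ± 0.23 (adjusted p = 0.000372), and again no perturbed library overlapped the control.

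C19orf68 (ZSWIM9, a zinc finger protein) rose in both of its named copies. C19orf68 on scaffold 52341 was at 72.2 and 59.3 CPM in the Foxj1 CRISPR libraries, in the Foxn4 CRISPR libraries at 31.3 and 39.6, in the morpholino libraries at 49.9 and 35.1 and in the controls at 14.0, 16.2 and 10.5. C19orf68 on scaffold 208071 was at 17.1 and 11.6 CPM in the Foxj1 CRISPR libraries, in the Foxn4 CRISPR libraries at 10.2 and 9.43, in the morpholino libraries at 16.3 and 8.26 and in the controls at 2.92, 6.88 and 2.52. The first copy rose by 2.27 ± 0.27 (adjusted p = 0.000333) and the second by 1.80 ± 0.46 (adjusted p = 0.0111), a call that ended without Foxj1 CRISPR replicate 1 (1.49). C21orf33 (GATD3), which encodes a mitochondrial protein but was not on the mitochondrion list, was higher in Foxj1 CRISPR by 2.21 ± 0.38 (adjusted p = 0.00162) and in Foxn4 CRISPR by 2.05 ± 0.38 (adjusted p = 0.00504), but 1.35% of its counts matched uniquely. C21orf33 stood at 42.5 and 62.2 CPM in Foxj1 CRISPR caps, at 36.9 and 56.3 in Foxn4 CRISPR caps and at 11.8 and 15.0 in morpholino caps, and the control libraries had 8.23, 8.02 and 17.6. The CRISPR groups were high and the morpholino overlapped the control. With all matching reads counted, the C21orf33 differences were 0.98 with adjusted p = 0.0738 and 0.60 with adjusted p = 0.281, so neither call held. The Foxn4 CRISPR call also ended without its replicate 2 (1.70).

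**Figure D3:**
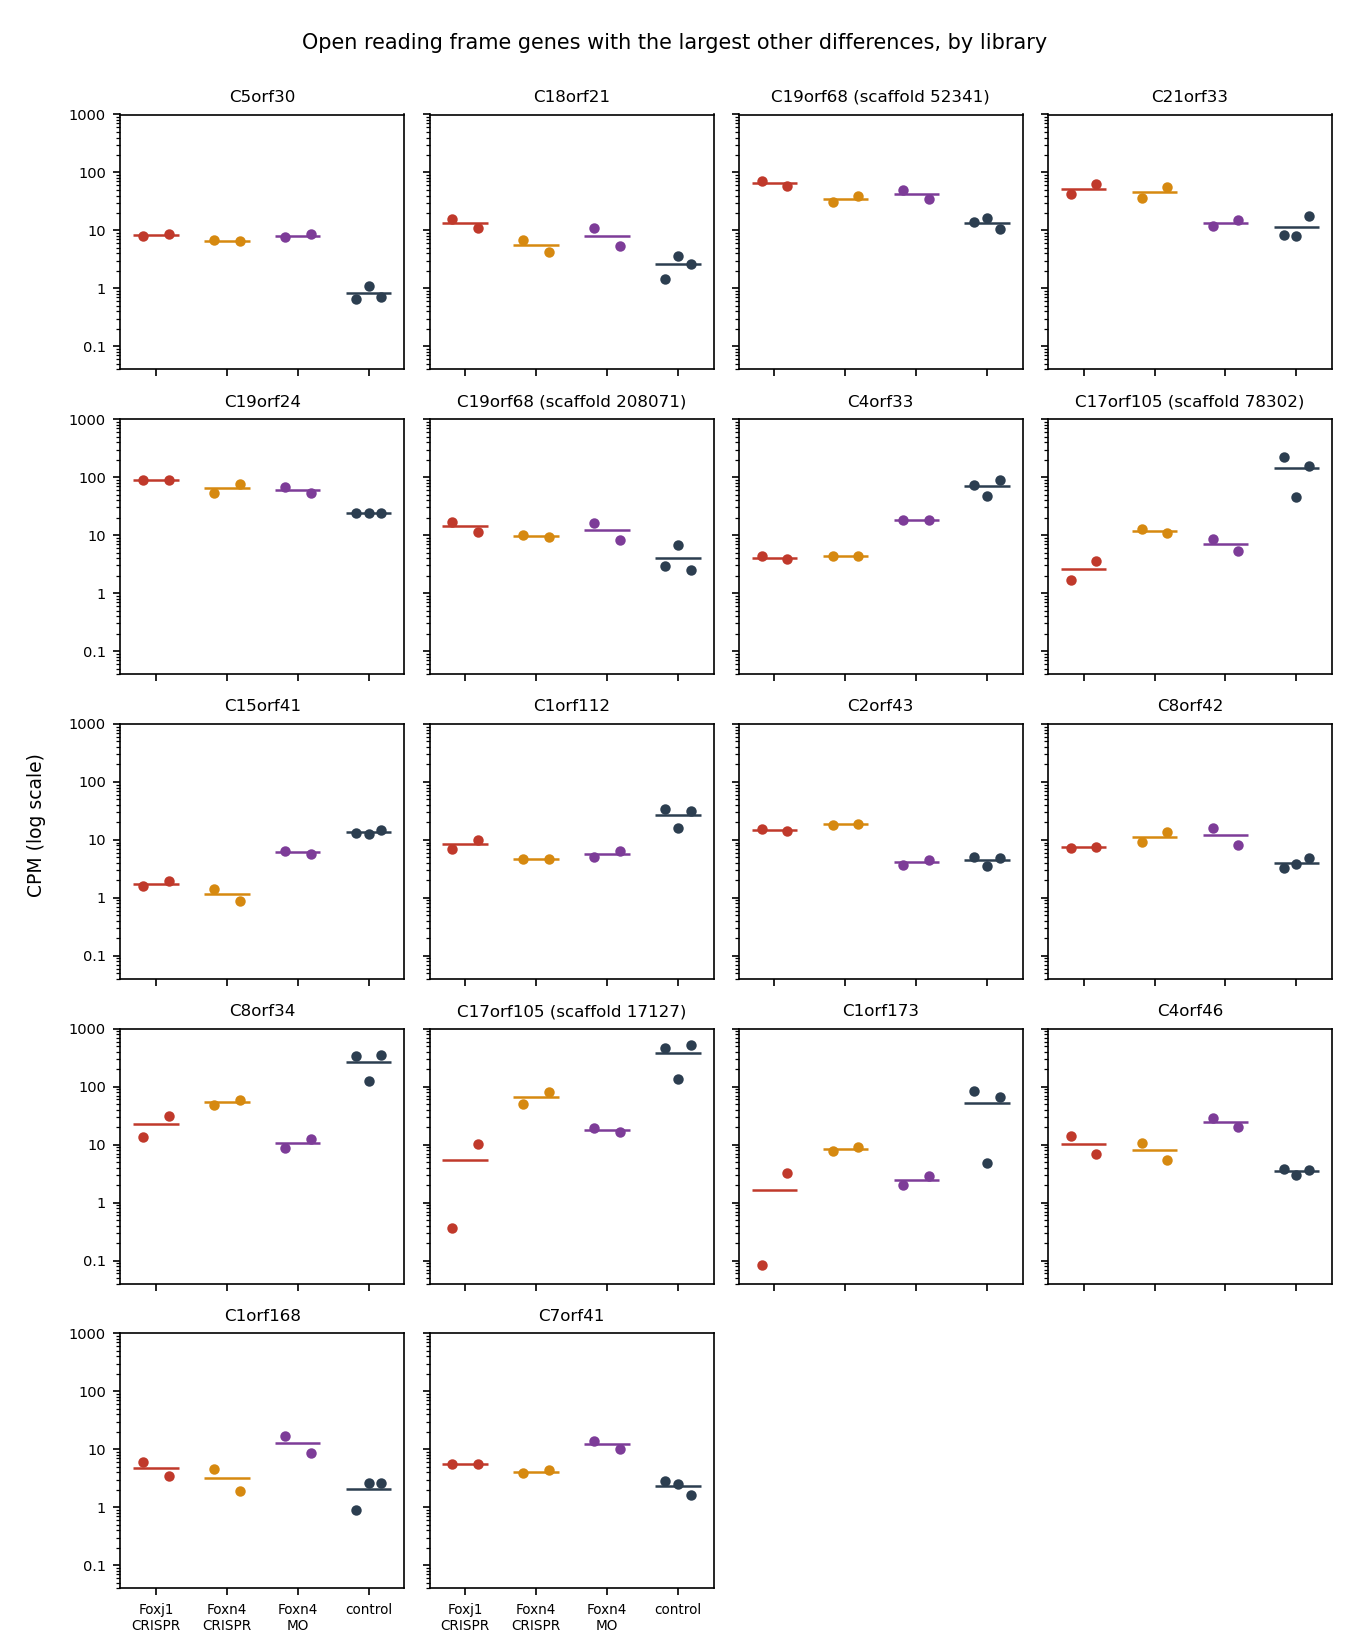
Level of the open reading frame models with the largest other differences from the control among those with a mean of at least 5 CPM, 18 models. Each point is 1 library, each bar the mean of its group, and the y axis is CPM on a log scale. C5orf30 is high in all perturbed groups, C4orf33 and C15orf41 are lowest in both CRISPR groups, and C8orf34 is lowest with the morpholino.

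Between the CRISPR groups, 0 tested members were higher in Foxj1 CRISPR than in Foxn4 CRISPR by edgeR, against 0.021% of all tested models. At an unadjusted p under 0.05, 15 were higher, and DESeq2 called 1. Of the 16 members called lower (4.98%, against 1.43% of all tested models), each was also lower than the control and so had the ciliary pattern.

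Foxn4 CRISPR was compared with the control in the same way. Of the 321 tested members, 37 (11.5%) were lower and 22 (6.85%) higher than the control, against 10.7% and 12.6% of all tested models, with a median of -0.11, against -0.03. Of the axoneme list 9 of 27 fell, 0 rose and the median was -0.90 (0 rose at an unadjusted p under 0.05 and 0 by DESeq2). Of the cilium assembly list 5 of 11 fell, 0 rose and the median was -0.92 (0 rose at an unadjusted p under 0.05 and 0 by DESeq2). In the mitochondrion list edgeR called 0 models in either direction (median -0.01), with 2 lower and 0 higher at an unadjusted p under 0.05 and 1 lower by DESeq2. In the genome maintenance list 1 fell and 3 rose (median 0.001). The axoneme count was 1 without Foxn4 CRISPR replicate 1, 2 without replicate 2, 4 with uniquely matching reads, and 4, 14 and 2 when control replicate 1, 2 or 3 was left out. For cilium assembly it was 0 without either Foxn4 CRISPR replicate, 3 without either Foxj1 CRISPR replicate, and 3, 8 and 2 when control replicate 1, 2 or 3 was left out. The counts over all members moved too. Without replicate 1, 9 members were lower and 9 higher, and without replicate 2, 11 and 6, while without control replicate 3 the lower count was 20.

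Among models with that mean level, the steepest fall in Foxn4 CRISPR was that of C4orf33. C4orf33 was at 4.35 and 3.88 CPM in the Foxj1 CRISPR libraries, in the Foxn4 CRISPR libraries at 4.41 and 4.35, in the morpholino libraries at 18.0 and 18.5 and in the controls at 74.5, 47.4 and 91.1. Both CRISPR groups were nearly equal, the morpholino lay between, and the control was highest, with no overlap. C4orf33 changed by -4.01 ± 0.35 (adjusted p = 0.000131) in Foxn4 CRISPR and by -4.10 ± 0.35 (adjusted p = 9.58e-05) in Foxj1 CRISPR. Its model overlaps SCLT1 on the other strand, and 40.2% of its counts matched uniquely. C17orf105 on scaffold 78302 changed by -3.58 ± 0.63 (adjusted p = 0.00399). C17orf105 on scaffold 78302 stood at 1.71 and 3.52 CPM in Foxj1 CRISPR caps, at 12.5 and 11.1 in Foxn4 CRISPR caps and at 8.67 and 5.39 in morpholino caps, and the control libraries had 222, 45.7 and 156. Every perturbed library of this copy lay below the lowest control. C1orf112 (FIRRM), a regulator of recombination, changed by -2.53 ± 0.39 (adjusted p = 0.00227) in Foxn4 CRISPR, by -1.69 ± 0.37 (adjusted p = 0.00565) in Foxj1 CRISPR and by -2.24 ± 0.38 (adjusted p = 0.00149) with the morpholino. C1orf112 had 7.02 and 9.94 CPM with Foxj1 CRISPR, 4.70 and 4.76 with Foxn4 CRISPR and 5.01 and 6.46 with the morpholino, against 34.5, 16.0 and 31.4 in control caps. It was the single genome maintenance model that fell, and its perturbed libraries all lay below the lowest control.

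C15orf41 (CDIN1), mutated in a human congenital anaemia, had low counts of which 24.4% matched uniquely. C15orf41 had 1.59 and 1.93 CPM with Foxj1 CRISPR, 1.43 and 0.878 with Foxn4 CRISPR and 6.42 and 5.73 with the morpholino, against 13.1, 12.5 and 14.6 in control caps. C15orf41 changed by -3.56 ± 0.37 (adjusted p = 0.000345) in Foxn4 CRISPR on estimated counts, but stood at 0.52 with adjusted p = 0.0503 when all matching reads were counted, the opposite direction. Among those higher in Foxn4 CRISPR, C2orf43 (LDAH, a lipid droplet protein) had 10.3% unique counts. C2orf43 stood at 15.3 and 14.4 CPM in Foxj1 CRISPR caps, at 18.3 and 19.0 in Foxn4 CRISPR caps and at 3.74 and 4.56 in morpholino caps, and the control libraries had 5.01, 3.58 and 4.89. C2orf43 stood at 2.05 ± 0.27 (adjusted p = 0.001), with uniquely matching reads at 1.38 (adjusted p = 0.0632) and with all matching reads at -0.33 (adjusted p = 0.284), so the call did not hold in either and the direction turned in the second. C8orf42 (TDRP, a nuclear protein of the testis) rose by 1.51 ± 0.36 (adjusted p = 0.0144), a call that ended without Foxn4 CRISPR replicate 2 (1.21). C8orf42 had 7.36 and 7.51 CPM with Foxj1 CRISPR, 9.32 and 13.4 with Foxn4 CRISPR and 16.0 and 8.11 with the morpholino, against 3.21, 3.86 and 4.88 in control caps. All perturbed libraries of this copy, on scaffold 76530, lay above the highest control. A second tested copy of C8orf42 stood at 0.25 in Foxn4 CRISPR and was not called. With its copies summed the value was 1.03 (adjusted p = 0.0568), a lost call.

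With the foxn4 morpholino, 78 members (24.3%) were lower and 68 (21.2%) higher than the control, against 21.1% and 23.9% of all tested models, with a median of 0.02, against 0.08. Of the axoneme list 21 of 27 fell, 0 rose and the median was -1.19 (0 rose at an unadjusted p under 0.05 and 0 by DESeq2). Of the cilium assembly list 6 of 11 fell, 0 rose and the median was -1.04 (0 rose at an unadjusted p under 0.05 and 0 by DESeq2). Of the mitochondrion list 0 fell and 3 rose (median 0.75, with 0 lower at an unadjusted p under 0.05 and 0 by DESeq2), and of the genome maintenance list 1 fell and 4 rose (median 0.52). Without morpholino replicate 1, 39 members were lower, 7 of them of the axoneme list and 1 of the cilium assembly list, and 38 were higher, 0 of them of the mitochondrion list, while without morpholino replicate 2 the cilium assembly count was 4.

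Of the models with a mean of at least 5 CPM, C8orf34 had the lowest value with the morpholino, at -4.66 ± 0.57 (adjusted p = 0.000322). C8orf34 stood at 13.6 and 31.4 CPM in Foxj1 CRISPR caps, at 49.0 and 59.6 in Foxn4 CRISPR caps and at 8.65 and 12.7 in morpholino caps, and the control libraries had 337, 123 and 348. The morpholino libraries were the lowest, below Foxj1 CRISPR, which differed by -3.58 ± 0.54 (adjusted p = 0.000865) from the control. C17orf105 fell in both copies, at -4.41 ± 1.01 (adjusted p = 0.00601) on scaffold 17127, a call that ended without either morpholino replicate (-4.52 and -4.32), and at -4.34 ± 0.66 (adjusted p = 0.000831) on scaffold 78302. C1orf173 (ERICH3, a glutamate-rich protein linked to cilia in zebrafish and mouse) changed by -4.38 ± 1.22 (adjusted p = 0.0151). C1orf173 stood at 0.0837 and 3.21 CPM in Foxj1 CRISPR caps, at 7.82 and 9.03 in Foxn4 CRISPR caps and at 2.03 and 2.87 in morpholino caps, and the control libraries had 84.6, 4.88 and 66.9. Control replicate 2 of C1orf173 lay near the perturbed libraries and below both Foxn4 CRISPR libraries, and the call ended without either morpholino replicate (-4.19 and -4.66).

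Among the rises of models at that level with the morpholino, C4orf46 stood at 2.82 ± 0.39 (adjusted p = 0.000531). C4orf46 had 13.9 and 6.92 CPM with Foxj1 CRISPR, 10.5 and 5.39 with Foxn4 CRISPR and 29.0 and 20.2 with the morpholino, against 3.74, 2.99 and 3.67 in control caps. The morpholino libraries were the highest, and all perturbed libraries lay above the control. C7orf41 (MTURN), known in Xenopus for the differentiation of neural precursors, rose by 2.40 ± 0.33 (adjusted p = 0.000541). C7orf41 stood at 5.62 and 5.57 CPM in Foxj1 CRISPR caps, at 3.91 and 4.33 in Foxn4 CRISPR caps and at 13.9 and 10.3 in morpholino caps, and the control libraries had 2.79, 2.48 and 1.61. C1orf168 (FYB2, an adaptor protein of human T cells) rose by 2.65 ± 0.55 (adjusted p = 0.00364). C1orf168 was at 6.15 and 3.53 CPM in the Foxj1 CRISPR libraries, in the Foxn4 CRISPR libraries at 4.58 and 1.90, in the morpholino libraries at 17.3 and 8.65 and in the controls at 0.888, 2.60 and 2.64. In both genes the morpholino libraries lay above every other library.

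Of the 321 tested members, 135 (42.1%) were called in none of the 4 comparisons, against 42.7% of all tested models. The most abundant was C5orf15. C5orf15 had 159 and 169.8 CPM with Foxj1 CRISPR, 168 and 175 with Foxn4 CRISPR and 205 and 210.2 with the morpholino, against 172, 139.7 and 176 in control caps. All libraries of C5orf15 lay between 139.7 and 210.2 CPM. C17orf104 (MEIOC), known for the start of meiosis in mouse, was next. C17orf104 was at 117 and 180.4 CPM in the Foxj1 CRISPR libraries, in the Foxn4 CRISPR libraries at 178 and 220.5, in the morpholino libraries at 145 and 132 and in the controls at 156, 41.0 and 67.8. C16orf46 had 64.4 and 79.6 CPM with Foxj1 CRISPR, 96.5 and 122 with Foxn4 CRISPR and 102 and 92.2 with the morpholino, against 123, 82.2 and 186 in control caps. C19orf44 stood at 86.1 and 96.3 CPM in Foxj1 CRISPR caps, at 116 and 119.6 in Foxn4 CRISPR caps and at 97.3 and 90.9 in morpholino caps, and the control libraries had 130.2, 25.7 and 173. C17orf104 and C19orf44 varied widely between the control libraries, with replicate 2 lowest. C19orf47 stood at 103 and 43.6 CPM in Foxj1 CRISPR caps, at 197 and 85.9 in Foxn4 CRISPR caps and at 136 and 153 in morpholino caps, and the control libraries had 43.1, 47.3 and 103. This copy of C19orf47, on scaffold 39723, also differed widely between the replicates of each CRISPR group. Its other tested copy was called higher in Foxj1 CRISPR than in the control, at 1.18. In the authors' deposited table the copy on scaffold 39723 was higher with the morpholino, at -1.37 as control over perturbed (adjusted p = 0.0248). A missing call in these genes does not show that their levels were equal.

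The genome of Xenopus laevis carries paired copies of many genes, and 76 open reading frame symbols had 2 or more tested copies. Copies here are models that share a symbol. In Foxj1 CRISPR against the control, 19 of these symbols (25.0%) had a copy called lower and in 12 (15.8%) every copy was, against 32.5% and 8.09% of all 5908 symbols with 2 or more tested copies. A copy was called higher in 25 (32.9%) and every copy in 7 (9.21%), against 32.9% and 8.18%. The copies of 1 symbol, C19orf21, were called in opposite directions, a count not made over all symbols. Copies of other symbols differed in sign without both being called, such as C19orf66 at -1.23 (not called) and 2.62 (called higher). The median distance between the highest and lowest copy of a symbol was 0.67 on the log2 scale. Against Foxn4 CRISPR, 1 symbol had a lower copy, C12orf52.

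Foxn4 binding was read from the authors' lists of ChIP peaks, called in each library alone, with 29673 peaks in Foxn4 with Multicilin and 65258 in Foxn4 alone. Each list has 1 library and no replicate check, and their depths differed, at 4911853 and 7387992 tags, so the lists are given side by side. A peak centre lay within 1000 bp of the start of 161 of the 387 open reading frame models (41.6%) with Multicilin and of 250 (64.6%) with Foxn4 alone, against 31.4% and 53.3% of all 24383 models. Among tested models the shares were 48.0% and 73.2%, against 38.9% and 63.9%. For 12.8% of tested members the nearest other start lay on the opposite strand within 1000 bp, against 7.41% of all tested models. A peak between such starts cannot be assigned to one of the pair, and the part of this in the shares was not tested. The folds over input, the authors' own values, ran from 4.81 to 250.4 (median 21.2) with Multicilin and from 4.1 to 545 (median 20.1) with Foxn4 alone, close to the medians over all peaks, 20.8 and 19.85. Centres lay within 200 bp of the start in 131 of 161 and 203 of 250.

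**Figure D4:**
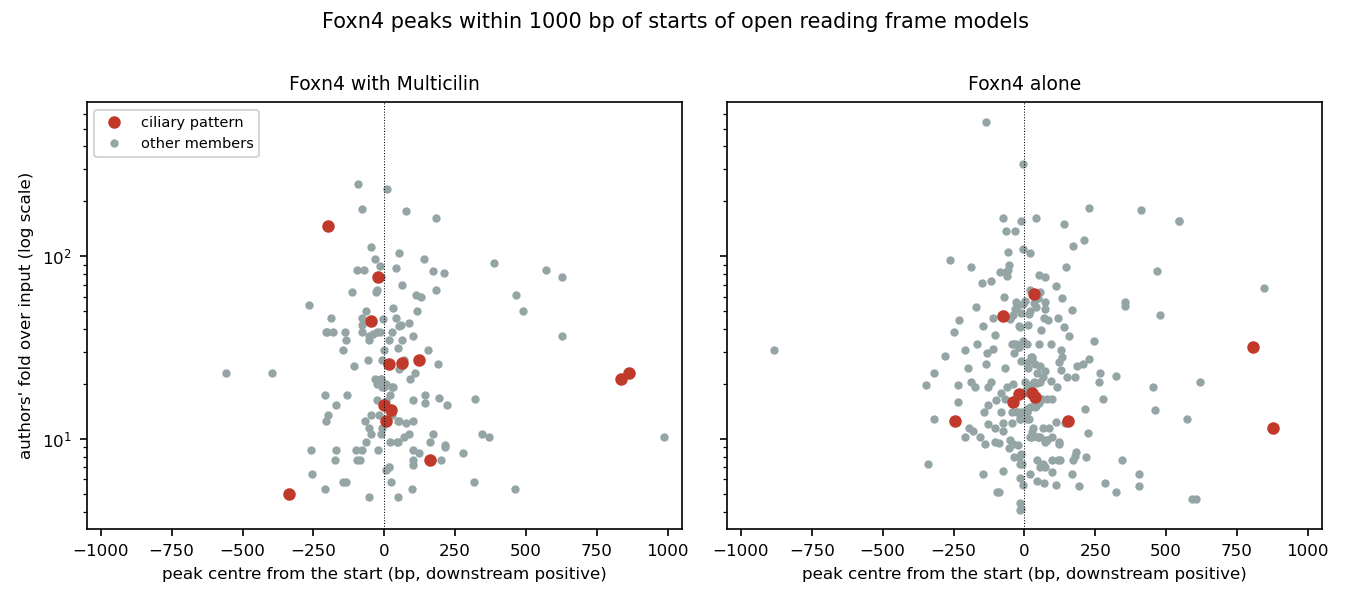
Foxn4 peaks near the starts of open reading frame models, for the ChIP with Multicilin and for Foxn4 alone. The x axis is the distance of the peak centre from the start of the model in bp, the y axis the authors' fold over input on a log scale, and red marks models with the ciliary pattern. Most centres lie within 200 bp of the start, and the red points span 5.01 to 146 in fold with Multicilin.

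Of the 16 models with the ciliary pattern, 13 had such a peak with Multicilin and 10 with Foxn4 alone, and all 10 had both. Of all 269 tested models with the pattern, 189 (70.3%) and 204 (75.8%) had one. C2orf62 had the highest fold of the 16 with Multicilin, 146.36 at 198 bp upstream of its start, and 47.37 at 76 bp upstream with Foxn4 alone. C21orf58 had a peak 23 bp upstream with a fold of 77.03, C11orf16 one 48 bp upstream with 44.29 and C6orf118 one 25 bp downstream with 14.44, each with Multicilin and none within 1000 bp with Foxn4 alone. C15orf26 had folds of 26.96 with Multicilin and 62.1 alone. At C1orf192 and C2orf61 the centres lay between 805 and 879 bp downstream in both lists. C12orf52 on scaffold 272406, C1orf222 and C1orf227 had no peak within 1000 bp in either list. The start of C4orf47 lies 247 bp from that of UFSP2 on the other strand, so its peak 336 bp upstream with Multicilin (fold 5.01) cannot be assigned to one of the pair.

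Peaks were then set beside the calls in Foxn4 CRISPR. Of 37 members lower in Foxn4 CRISPR than in the control, 19 (51.4%) had a peak with Multicilin and 24 (64.9%) with Foxn4 alone. The 22 higher members had 5 (22.7%) and 15 (68.2%), and the 262 not called had 130 (49.6%) and 196 (74.8%). Over all tested models, 39.1% and 62.2% of the lower, 28.2% and 49.5% of the higher and 40.6% and 66.5% of those not called had one. These shares come with no test. Peaks in both lists and a lower level in Foxn4 CRISPR met in 18 models, 48.6% of the lower members. This share was near that of the members not called, of which 46.9% had peaks in both lists. Over all tested models the shares were 38.1% of the lower and 39.3% of those not called. Among the 18 were 4 of the axoneme list besides C1orf192 and C7orf63, namely C16orf80 on scaffold 59180, C20orf26, C9orf117 and C9orf135. In the authors' deposited table, C1orf112, C21orf2, C4orf45, C5orf24, C6orf120, C7orf43 and C7orf60 were lower in Foxn4 CRISPR at an adjusted p under 0.05. The rest of the 18, among them these 4 axoneme models, were not under 0.05 there.

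C20orf26 changed by -1.59 ± 0.35 (adjusted p = 0.0109) in Foxn4 CRISPR, a call that ended without Foxn4 CRISPR replicate 1 (-1.26). C9orf135 (CFAP95, a doublet inner protein) changed by -1.55 ± 0.44 (adjusted p = 0.0311). C9orf135 stood at 14.9 and 22.6 CPM in Foxj1 CRISPR caps, at 27.6 and 43.8 in Foxn4 CRISPR caps and at 13.9 and 17.3 in morpholino caps, and the control libraries had 90.9, 55.8 and 167. Its call ended without either Foxn4 CRISPR replicate (-1.25 and -1.93) and without control replicate 3 (-1.02). C16orf80 on scaffold 59180 stood at -1.07 ± 0.34 (adjusted p = 0.0462) and C9orf117 at -0.80 ± 0.25 (adjusted p = 0.0453), and these calls ended when any 1 library other than control replicate 2 was left out, with values from -1.35 to -0.66. Among the cilium assembly genes of the 18, C21orf2 (CFAP410) changed by -1.17 ± 0.28 (adjusted p = 0.0148), C8orf37 (CFAP418), a gene of human retinal disease, by -1.13 ± 0.33 (adjusted p = 0.0332), and C7orf43 (TRAPPC14) on scaffold 175714 by -2.47 ± 0.58 (adjusted p = 0.0144). With all matching reads C7orf43 stood at -1.05 (adjusted p = 0.0934), a lost call. C1orf192, C2orf62 and C7orf63, with the ciliary pattern, stood at -1.15 ± 0.35 (adjusted p = 0.0394), -1.06 ± 0.34 (adjusted p = 0.0488) and -0.92 ± 0.30 (adjusted p = 0.0471). All 6 of these calls ended without either Foxn4 CRISPR replicate, with values from -2.95 to -0.83. Those of C8orf37, C1orf192, C2orf62 and C7orf63 also ended without control replicate 1 or control replicate 3 (-1.09 to -0.71), those of C8orf37, C2orf62 and C7orf63 without either Foxj1 CRISPR replicate, and those of C2orf62 and C7orf63 without either morpholino replicate.

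The rest of the 18 were C1orf112 and C8orf34, described above, and C10orf67, C17orf98, C4orf45, C5orf24, C6orf120 and C7orf60 (BMT2, a methyltransferase that senses S-adenosylmethionine). C17orf98 on scaffold 155082 had the lowest value of these, -2.51 ± 0.59 (adjusted p = 0.0138). C17orf98 was at 1.12 and 2.99 CPM in the Foxj1 CRISPR libraries, in the Foxn4 CRISPR libraries at 8.44 and 9.75, in the morpholino libraries at 2.13 and 5.65 and in the controls at 62.0, 23.3 and 70.2. Every perturbed library lay below the lowest control, and its model overlaps MSRB2 on the other strand. A second tested copy of C17orf98 stood at -1.75 and was not called. With its copies summed the value was -1.95 (adjusted p = 0.0964), a lost call. The other 5 fell by between 1.25 and 2.14 on the log2 scale. Of these, C6orf120 stood at -1.88 on estimated counts, at -0.84 (adjusted p = 0.0891) with all matching reads and at -0.25 (adjusted p = 0.607) with its copies summed. Second tested copies of C5orf24 and C7orf60 stood at -0.60 and 0.01 and were not called, and that of C7orf60 was called higher with the morpholino (1.90). All 6 calls, and that of C8orf34, ended without 1 or both Foxn4 CRISPR replicates, whereas that of C1orf112 did not. The calls of C10orf67 and C4orf45 also ended without control replicate 1 or 3 (-2.11 to -0.88), and that of C10orf67 without either Foxj1 CRISPR replicate (-1.25).

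The authors' deposited tables of their own comparisons give log2 values of the control over the perturbed group, so a positive value means lower in the perturbed caps. In the authors' deposited table for Foxj1 CRISPR, 71 of 374 open reading frame models (19.0%) had an adjusted p under 0.05 and were lower and 20 (5.35%) were higher, against 7.09% and 6.64% of all models listed. For Foxn4 CRISPR the authors' deposited table gave 16 of 370 lower (4.32%) and 8 higher (2.16%), against 3.58% and 5.15%. For the morpholino the authors' deposited table gave 45 of 375 lower (12%) and 20 higher (5.33%), against 10.2% and 7.27%. Of the 16 models with the ciliary pattern, the authors' deposited tables had 16 lower in Foxj1 CRISPR, 1 in Foxn4 CRISPR and 7 with the morpholino. The 16 were chosen as lower in Foxj1 CRISPR in these same data, so the first count is no independent support.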

How the data were processed

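Per the file headers, the deposited RNA files are eXpress output: estimated counts, which divide a read that matches several gene models among them, whole counts of uniquely matching and of all matching reads, and TPM. The gene models and the version 7.1 scaffold assembly come from the series' design text, and STAR, eXpress, DESeq, Bowtie2 and HOMER are named in the submitters' processing notes, without versions. The authors' deposited comparison tables hold a log2 value and an adjusted p-value, and their log2 values correlated with those computed here, across models, at r = -0.856 to -0.897, so they run as control over perturbed. Per the file headers, HOMER called peaks in each ChIP library at a false discovery rate of 0.001, with at least 4 times the input tags, and the deposited lists give each peak's fold ratio over input and its signal, the tag count after scaling. Deposited coordinates are 1-based positions on scaffolds.

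Estimated counts were rounded and fitted with edgeR 4.0.16 (R 4.3.3): TMM scaling, the default low-count filter by group, group as the only term, all 9 libraries in 1 fit with 5 residual degrees of freedom, Benjamini-Hochberg adjustment over 19058 models, and a call at 0.05. CPM use TMM-scaled library sizes. Models without a symbol, 1.70 to 2.43% of counts, stayed in the fit. The fit was tested on simulated data. A peak belonged to a model if its centre lay within 1000 bp of the model's 5' end. The genes, the lists and the pattern were chosen with earlier results of these data known. Lists by later gene name were axoneme, cilium assembly, mitochondrion and genome maintenance. Genes were named by rule: the 12 lowest between the CRISPR groups among those with the pattern, the extremes of each comparison with control (mean of at least 5 CPM over all libraries), the 5 most abundant uncalled, those with peaks in both lists that were lower in Foxn4 CRISPR, symbols with copies in and out of the pattern, and the 6 most abundant cilium models outside it; others are named as chosen after their values were seen. Alternatives changed the scaling, the filter, the tool (DESeq2 1.42.0), the kind of count, the copies, the libraries and the peak window. The re-used ChIP inputs were not analysed here, and 1 symbol of this form is not reported here.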

Additional observations from a re-analysis of the deposited data

How the results depend on the processing

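The counts of lower members in Foxj1 CRISPR against the control (91) and of members with a peak stayed within 1.5 times under every alternative that kept all libraries. Members lower in Foxn4 CRISPR (37) numbered 57 with DESeq2 and 57 with all matching reads, and those higher (22) numbered 40 with all matching reads. Between the CRISPR groups, the 16 lower members became 25 without the low-count filter, 36 with DESeq2 and 28 in a fit of those groups alone, and the higher ones became 1 with DESeq2 and 1 in that fit. Over all tested models the lower count rose as well, from 272 to 421, 701 and 637 in the same order. The higher count over all tested models went from 4 to 39 with DESeq2 and 68 in that fit. Members with the ciliary pattern numbered 25 without the filter and 36 with DESeq2, and in both all 16 were among them; with copies summed by symbol 15 of the 16 kept it, and in fits of the 2 groups compared 13. The cause of these shifts was not tested.

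Leaving out 1 library at a time gave 59 to 107 members lower and 20 to 68 higher in Foxj1 CRISPR than in the control, 9 to 55 lower and 6 to 28 higher in Foxn4 CRISPR, 39 to 89 lower and 38 to 70 higher with the morpholino, 0 to 32 lower and 0 to 0 higher between the CRISPR groups, and 0 to 32 with the pattern. Of the 16, 8 kept the pattern without Foxj1 CRISPR replicate 2, 11 without either morpholino library or control replicate 1, 14 without control replicate 3 and 16 without control replicate 2. A group left with 1 library was assumed to vary like the others. Apart from those between the CRISPR groups, these ranges are given without counts over all tested models.

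Groups share replicate numbers, but nothing in the labels says that a number marks a shared clutch, and the pairing check gave correlations of same-numbered deviations of 0.51 between the CRISPR groups, 0.17 and 0.09 of those with the morpholino, and -0.14 to -0.02 with the control. With 2 libraries a group, the CRISPR correlation rests on 1 difference per group, and the numbers were not taken as pairs. With the replicate number as a block, 17 members were lower in Foxn4 CRISPR than in the control, 0 were lower between the CRISPR groups and 0 had the pattern (over all tested models 0 were called and 2167 had an unadjusted p under 0.05, against 2165 without the block), and the 16 adjusted p-values lay between 0.0583 and 0.102. With the block, the axoneme list had 26 models lower in Foxj1 CRISPR than in the control (26 without it), 2 in Foxn4 CRISPR (9), 16 with the morpholino (21) and 0 between the CRISPR groups (7), and cilium assembly had 6 (8), 1 (5), 4 (6) and 0 (1) in the same order. Between the CRISPR groups the axoneme list had 19 with DESeq2, 14 in a fit of those groups alone, 13 without the filter and 11 with uniquely matching reads.

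Of 1309 values of named genes under the alternatives, 1113 kept direction and side of the threshold, 177 kept direction but lost their call, 16 gained one and 3 reversed. The reversed values were 0.52 for C15orf41 and -0.33 for C2orf43 in Foxn4 CRISPR with all matching reads, and 0.026 for C5orf42 between the CRISPR groups without Foxj1 CRISPR replicate 1, with a range of -0.40 to 0.026 when 1 library was left out. Another scaling (RLE) moved the median of all models by less than 0.1 in each comparison. With 2 libraries in 3 of the groups, the depth of 8265823 counts in the shallowest library limits what can be read of models with few counts.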
